A study of Mus musculus with 48 samples.

Results

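Rag2-null pro-B cells were compared with Rag2-intact pro-B cells at the level of polyadenylated RNA. Pro-B cells are the B-cell precursors in which the immunoglobulin heavy-chain gene is assembled. Both groups came from C57BL/6 mice and carried Ikzf1(fl/+) and Cd79a(Cre/+), that is, 1 floxed copy of Ikzf1 together with a Cre recombinase expressed from the B-lineage gene Cd79a, so the Cre was present in these controls too. The Rag2-null control group was additionally Rag2(-/-) and had 2 libraries, and the Rag2-intact control group, with no Rag2 allele given, also had 2. A parallel comparison used 2 libraries each of Ikzf1(fl/-) Cd79a(Cre/+) pro-B cells, called Ikzf1-deleted here, with and without Rag2(-/-). Sorting markers, culture conditions, ages and the number of animals behind each library were not given, and neither was the part of Rag2 that the null allele lacks. Nothing in the labels says that the 2 libraries of a group came from separate animals, so p-values measure the spread between libraries, which may be technical. The 2 Rag2-null libraries did differ in Y-linked transcripts, given below, so they were not repeats of the same RNA sample. Of 21025 gene rows, 10389 had at least 1 RPKM (read count scaled to the length of the gene model and to the depth of the library) in at least 2 of the 4 control libraries and were tested, and these are the rows described.

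Rag1 and Rag2 form the recombinase that cuts DNA at antigen-receptor genes, and without either protein no V, D or J segments are joined. A pro-B cell that has joined a heavy chain in frame displays it with the surrogate light chain and the signalling chains Cd79a and Cd79b as the pre-B-cell receptor. Signals from that receptor and from the interleukin-7 receptor drive division, and later steps shut the surrogate light-chain genes off and switch on light-chain joining. Mice without Rag2 therefore hold a B lineage that stops at the pro-B stage, with neither recombinase breaks nor a heavy chain.

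The Rag2-null libraries were the deeper ones, at 29.83 and 26.86 M (mega) reads implied by the RPKM values, against 11.56 and 10.23 M in the intact libraries. Their library numbers also came from another run than those of the intact libraries. No run of library numbers held both genotypes, so library batch, depth and Rag2 genotype cannot be told apart in any result below. Replicate numbers follow accession order and only name a library. Rag2-null replicate 1 had 0 reads for the Y-linked genes Ddx3y, Eif2s3y and Kdm5d, which allows at most 0.0565 RPKM (3 reads; counting error only) for any of them, whereas replicate 2 had 1.14, 10.4 and 2.23 RPKM. The intact replicates had 5.24 and 4.70 RPKM for Ddx3y, and they also had 8.46 and 8.07 RPKM for Xist, which is transcribed from the inactive X chromosome. Rag2-null Xist levels were 1.86 and 0.0187 RPKM. Thus both intact libraries held transcripts of both kinds, and the Rag2-null libraries differed from each other and from the intact ones in them. The 2 Rag2-null libraries also differed from each other in p53 target transcripts, described further on.

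Rag2 itself was detected in all 4 control libraries. The Rag2-null replicates had 3.55 and 1.5 RPKM and the intact replicates 6.14 and 4.40 RPKM. All Rag2-null values were below all intact values. The difference in mean log2(RPKM + 1), Rag2-null minus intact, was −0.88 (SE 0.29, limma, Benjamini-Hochberg adjusted p = 0.033), and the call was lost without Rag2-null replicate 2 (−0.45, adjusted p = 0.26), without intact replicate 1 (−0.68, adjusted p = 0.20), with quantile normalization (−0.65, adjusted p = 0.11) and with the gene-length trend described below removed (−0.67, adjusted p = 0.10). Each row counts reads over a whole gene model, so this row does not show whether the part of Rag2 removed in the null allele was transcribed, and it does not check the genotype labels. Rag1, the neighbouring recombinase gene, had 30.1 and 11.1 RPKM in the Rag2-null replicates and 20.2 and 14.8 in the intact ones. These ranges overlapped (log2 0.08, SE 0.51, adjusted p = 0.92). Ikzf1, which encodes the zinc-finger factor Ikaros and has 1 floxed copy in both groups, was at 62.3 and 56.2 RPKM against 59.2 and 56.4, again with overlap (log2 0.03, SE 0.14, adjusted p = 0.88). With the gene-length trend removed, Ikzf1 passed the threshold as higher in Rag2-null libraries.

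The Rag2-null allele was bred into the mice, and the genes beside Rag2 were therefore listed by chromosomal order. Among the 10 nearest tested genes on each side, 5 were higher and 4 lower, or 45% of 20. Among the 50 nearest on each side, 17 were higher and 24 lower, or 41% of 100. Across all tested rows 37.0% were called in either direction, so the share beside Rag2 was near the background. After the dependence on gene length described next was removed, the shares became 20% and 26%, against 28.6% of all rows. Of the 20, 3 were then higher, among them Cat (0.84, and 0.73 as deposited), and 1 was lower, Cd44 (−0.86, and −1.28 as deposited). Iftap, the immediate neighbour, was at 3.89 and 4.51 RPKM in Rag2-null and 2.01 and 2.06 RPKM in intact libraries. It was higher in both Rag2-null libraries (log2 0.77, SE 0.23, adjusted p = 0.021), and Commd9 also rose (log2 0.66). Trim44 (−0.73) and Ldlrad3 (−0.53) fell, and Traf6, a signalling adaptor, was not called (−0.13). With length removed Iftap kept its call (0.83, adjusted p = 0.017), and Trim44 (−0.31, adjusted p = 0.075), Commd9 (0.40, adjusted p = 0.075) and Ldlrad3 (−0.28, adjusted p = 0.24) lost it. As deposited, Trim44 was the one of these 4 that kept its call whichever library was left out. Iftap (adjusted p up to 0.087) and Commd9 (up to 0.063) lost it without either intact replicate, and Iftap also without Rag2-null replicate 2 and Commd9 without Rag2-null replicate 1. Ldlrad3 (up to 0.13) lost it without any 1 of the 4.

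Over all tested rows, 1367 (13.2%) were higher and 2477 (23.8%) lower in Rag2-null than in intact control cells at an adjusted p under 0.05, and the median log2 difference was −0.09. Median-ratio scaling moved that median to 0.02 and gave 1942 higher and 1893 lower, so that 50.6% of calls were higher rather than 35.6%. Quantile normalization gave 46.4% higher. The 2 groups did not overlap in 70.1% of tested rows. Leaving out 1 of the 4 libraries at a time gave between 812 and 1409 higher and between 1558 and 2304 lower rows. The number of higher rows fell most without intact replicate 1 (812) or intact replicate 2 (829), and the lower rows fell to 1566 and 1558.

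The direction of a row's difference was related to the length of its gene model. When the tested rows were divided by length into 5 classes of about equal size, the median log2 difference was 0.31 in the shortest class (up to 1550 nt) and −0.43 in the longest (4572 nt and above). In the shortest class 732 rows were higher and 131 lower, and in the longest class 32 were higher and 992 lower. Across rows, which are not independent replicates, the log2 difference had a Pearson correlation of −0.43 with log2 length, and all points share the same 4 libraries. In the Ikzf1-deleted libraries this correlation was −0.20. Removing the length trend of each library left 1519 higher (14.6%) and 1454 lower (14%) rows, with 51.1% of calls higher. Whether RNA quality, library preparation or the cells differed with length was not tested, and the counts of each gene group below are therefore given both ways. They are to be read against 13.2% higher and 23.8% lower rows as deposited, and 14.6% and 14% with length removed.

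**Figure D1:**
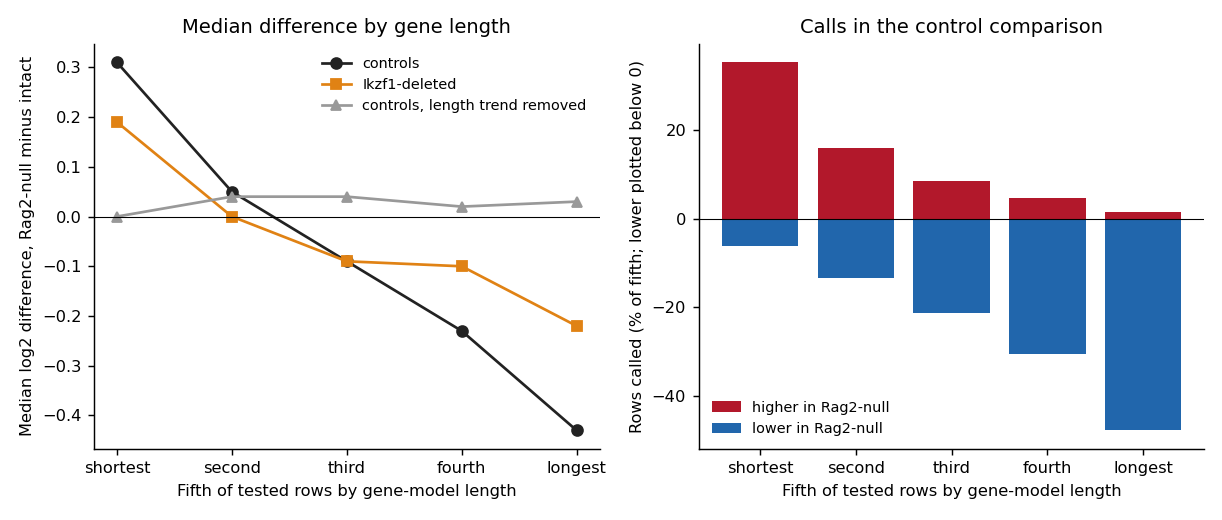
Median log2 difference, Rag2-null minus Rag2-intact, in 5 classes of tested rows ordered by gene-model length (left; controls, Ikzf1-deleted libraries, and controls after the length trend was removed) and the percentage of rows called in each class in the controls (right; lower calls drawn below 0). The control median runs from 0.31 in the shortest to −0.43 in the longest class, and higher calls give way to lower calls in the same order.

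The genes of the pre-B-cell receptor were higher in Rag2-null cells. All 6 tested members of the group (Igll1, Vpreb1, Vpreb2 and Vpreb3 of the surrogate light chain and its relatives, and the signal chains Cd79a and Cd79b) passed the test, against 13.2% of all rows, with a median log2 difference of 1.04 against −0.09. These transcripts are short, and 4 of 6 passed after the length trend was removed, with a median of 0.54 against 0.03 for all rows. Igll1 is the λ5 chain and Vpreb1 and Vpreb2 are the V-like chains that pair with it. The start regions of those 3 genes are shown because the genes moved together. Each is 250 bases before to 50 after the RefSeq start on GRCm38.p6, read along the gene's strand, with E-box letters in capitals, namely CAGGTG, which reads CACCTG along the opposite strand, or the palindrome CAGCTG. E-boxes of this kind are bound by E proteins such as the Tcf3 product E2A, a known activator of these genes.
Vpreb1 (chr16:16869206-16869505, minus strand): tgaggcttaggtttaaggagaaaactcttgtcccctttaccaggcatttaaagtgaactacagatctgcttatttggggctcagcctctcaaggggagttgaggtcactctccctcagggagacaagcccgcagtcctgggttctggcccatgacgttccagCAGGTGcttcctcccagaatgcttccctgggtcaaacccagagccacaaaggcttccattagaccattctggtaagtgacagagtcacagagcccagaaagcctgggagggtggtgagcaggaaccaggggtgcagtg
Vpreb2 (chr16:17980315-17980614, plus strand): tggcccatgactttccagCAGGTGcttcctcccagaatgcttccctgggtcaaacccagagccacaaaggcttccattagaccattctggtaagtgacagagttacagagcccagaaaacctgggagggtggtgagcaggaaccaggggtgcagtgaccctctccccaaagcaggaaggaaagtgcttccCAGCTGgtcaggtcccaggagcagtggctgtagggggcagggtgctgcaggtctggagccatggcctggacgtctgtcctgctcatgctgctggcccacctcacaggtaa
Igll1 (chr16:16863936-16864235, minus strand): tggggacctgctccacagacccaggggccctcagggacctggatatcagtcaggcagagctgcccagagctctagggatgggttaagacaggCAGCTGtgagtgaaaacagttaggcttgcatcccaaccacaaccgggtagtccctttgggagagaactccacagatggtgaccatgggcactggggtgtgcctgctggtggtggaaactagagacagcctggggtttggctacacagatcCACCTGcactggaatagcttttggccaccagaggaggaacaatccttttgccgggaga

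Vpreb1 held 1 of these motifs and Vpreb2 and Igll1 held 2 each, searched on both strands. At least 1 was present in 32.9% of 32851 RefSeq promoters of this length, those of 1 chromosome being left out of the count. A match is thus a description of the letters and no site of binding. The Vpreb1 and Vpreb2 windows were the same at 153 of 156 aligned positions, and reads from these close copies may have been split between their rows.

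Vpreb1 was measured at 2005 and 1297 RPKM in the Rag2-null replicates and at 842 and 836 RPKM in the intact replicates. Both Rag2-null values lay above both intact values, with replicate 1 the higher (log2 0.94, SE 0.18, adjusted p = 0.0016). Igll1 was at 2489 and 1866 RPKM against 1405 and 1361 RPKM, a smaller gap without overlap (0.64, SE 0.19, adjusted p = 0.020), which turned to −0.14 under quantile normalization and was 0.22 (adjusted p = 0.34) with the length trend removed. It also missed the threshold without either intact replicate or Rag2-null replicate 1 (adjusted p up to 0.16). Cd79b had 691 and 668 RPKM against 306 and 313 RPKM, and its replicates were close within each group (1.13, SE 0.19, adjusted p = 0.00083). It kept a difference of 0.88 after length removal and 0.64 after quantile normalization. Vpreb2 (1.14), Vpreb3 (1.22) and Cd79a (0.95) also rose. Cd79a is the locus that carries Cre in both groups.

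Among 23 tested genes of pre-B-cell receptor signalling, 3 were higher and 4 lower, with a median of −0.08, against 13.2% and 23.8% of all rows. With the length trend removed these counts were 5 and 2. Blk, a Src-family kinase of the pre-B-cell receptor, had 61.4 and 46.5 RPKM in Rag2-null and 24.4 and 16.5 RPKM in intact replicates. Every Rag2-null value exceeded every intact one (log2 1.37, SE 0.31, adjusted p = 0.0055; 1.46 with length removed). The related kinase Lyn (0.42) and the adaptor Blnk (0.41) rose by less. Btk, the Tec-family kinase downstream of Syk, went the other way, with 20 and 19.5 RPKM against 47.1 and 42.1 RPKM. Its groups were well apart (−1.13, SE 0.21, adjusted p = 0.0013; −1.03 with length removed). The scaffold Bank1 (−1.01), the phosphoinositide kinase subunit Pik3r1 (−0.77) and the exchange factor Vav3 (−0.71) fell, but Pik3r1 and Vav3 did not pass once length was removed, and Bank1 passed narrowly (adjusted p = 0.048). The kinase Syk was not called (0.06, adjusted p = 0.72), but passed as higher with length removed. Without intact replicate 2 none of the 23 rose and 3 fell, with Blk just past the threshold (1.10, adjusted p = 0.052), and without Rag2-null replicate 1, 1 rose and 4 fell. Lyn (adjusted p up to 0.16) and Bank1 (up to 0.14) were lost without either of those libraries, and Blnk (up to 0.17) also without intact replicate 1.

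In the B-lineage identity group 8 of 29 genes rose and 6 fell (median 0.13), against 13.2% and 23.8% of all rows, and 8 rose and 2 fell with length removed (median 0.25). As deposited, 6 of the 8 risers were the surrogate and signal chain genes and Blnk already named, Vpreb3 not being a member. The other two were Sox4 (0.55), a transcription factor of early lymphocytes, and Bst1, the surface enzyme BP-3. Bst1 had 96.5 and 72.4 RPKM against 36.5 and 32.2 RPKM, without overlap (1.26, SE 0.20, adjusted p = 0.00055; 1.33 with length removed). Pax5, the factor that fixes B-cell commitment, had 81.0 and 70.6 RPKM in Rag2-null and 133 and 139 RPKM in intact libraries. Its groups did not overlap (−0.84, SE 0.15, adjusted p = 0.0011), but the gene model is 9619 nt long and the difference was −0.15 (adjusted p = 0.39) with the length trend removed. The octamer factor Pou2f2 fell (−1.01, and −0.80 with length removed). The commitment factors Ebf1 (−0.08), Tcf3 (0.13) and Foxo1 (−0.05) were not called, although Tcf3 passed as higher with length removed. Without either intact replicate 5 of the 29 rose and 4 fell, and Sox4 was lost without either of them or Rag2-null replicate 1 (adjusted p up to 0.31).

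Of 17 regulators of the recombinase genes, 1 rose and 4 fell (median 0.03), and 5 rose and 2 fell with length removed. The share of fallers was near the 23.8% of all rows. The riser was Spib, an ETS factor of the B lineage, at 276 and 176 RPKM against 91.0 and 85.6 RPKM. The lower Rag2-null value was still above both intact values (1.31, SE 0.20, adjusted p = 0.00042). Among the fallers were Foxp1 (−0.79), Mef2c (−0.76) and Zfp318 (−0.84), and of these 3 only Foxp1 passed with length removed, and Zfp318 was lost without intact replicate 2 (adjusted p = 0.059).

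Genes that mark pre-B and later B cells did not move one way. Of 33 listed, 21 were tested and 5 rose and 4 fell (median 0.10; 4 and 4 with length removed). Without intact replicate 1 the counts were 2 and 2, without intact replicate 2 they were 2 and 3, and without Rag2-null replicate 1 they were 3 and 3. Of the 4 fallers, 3 serve antigen presentation by MHC class II. Cd74, the invariant chain that escorts class II molecules, had 6.4 and 10.2 RPKM in Rag2-null and 33.6 and 42.5 RPKM in intact cells. The highest Rag2-null value was far below the lowest intact one (−2.09, SE 0.29, adjusted p = 0.00038). H2-Aa, a class II α chain, was at 0.406 and 0.277 RPKM against 3.22 and 3.00 RPKM (−1.62, SE 0.26, adjusted p = 0.00056). These are low levels in both groups, and H2-Eb1 fell too (−1.37; −0.97 and adjusted p = 0.087 without intact replicate 1). H2-Ab1, a class II β chain, was not called, with 41.4 and 28.5 RPKM against 29.4 and 33.5 RPKM and overlapping groups (0.13, adjusted p = 0.79). In the 2 pre-B libraries of the series, whose genotype is wild-type and so not matched to these groups, Cd74 was at 476 and 536 RPKM. The inhibitory receptor Cd22 fell by 0.58 on the log2 scale and was not called with length removed or without any 1 library (adjusted p up to 0.11).

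The 5 risers of that group were receptors, a cytokine, a tetraspanin and a transcription factor. S1pr4, a sphingosine-1-phosphate receptor, had 122 and 114 RPKM against 55.6 and 55.8 RPKM, with tight replicates and no overlap (1.07, SE 0.18, adjusted p = 0.00069). Cxcr5, the receptor for the follicular chemokine Cxcl13, had 139 and 45.9 RPKM against 27.6 and 31.0 RPKM. Rag2-null replicate 1 carried most of that difference (1.42, SE 0.41, adjusted p = 0.022), and without it the call was lost (0.63, adjusted p = 0.10), as it was without either intact replicate (adjusted p up to 0.10). Ltb, encoding lymphotoxin β, behaved alike at 121 and 55.0 RPKM against 33.7 and 33.5 RPKM (1.26, adjusted p = 0.039; 0.70 without Rag2-null replicate 1). Its call was lost without that library and without either intact replicate. The tetraspanin gene Cd37 (0.67) and Spib were the other two, and Cd37 was lost without either intact replicate or Rag2-null replicate 1 (adjusted p up to 0.12).

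**Figure D2:**
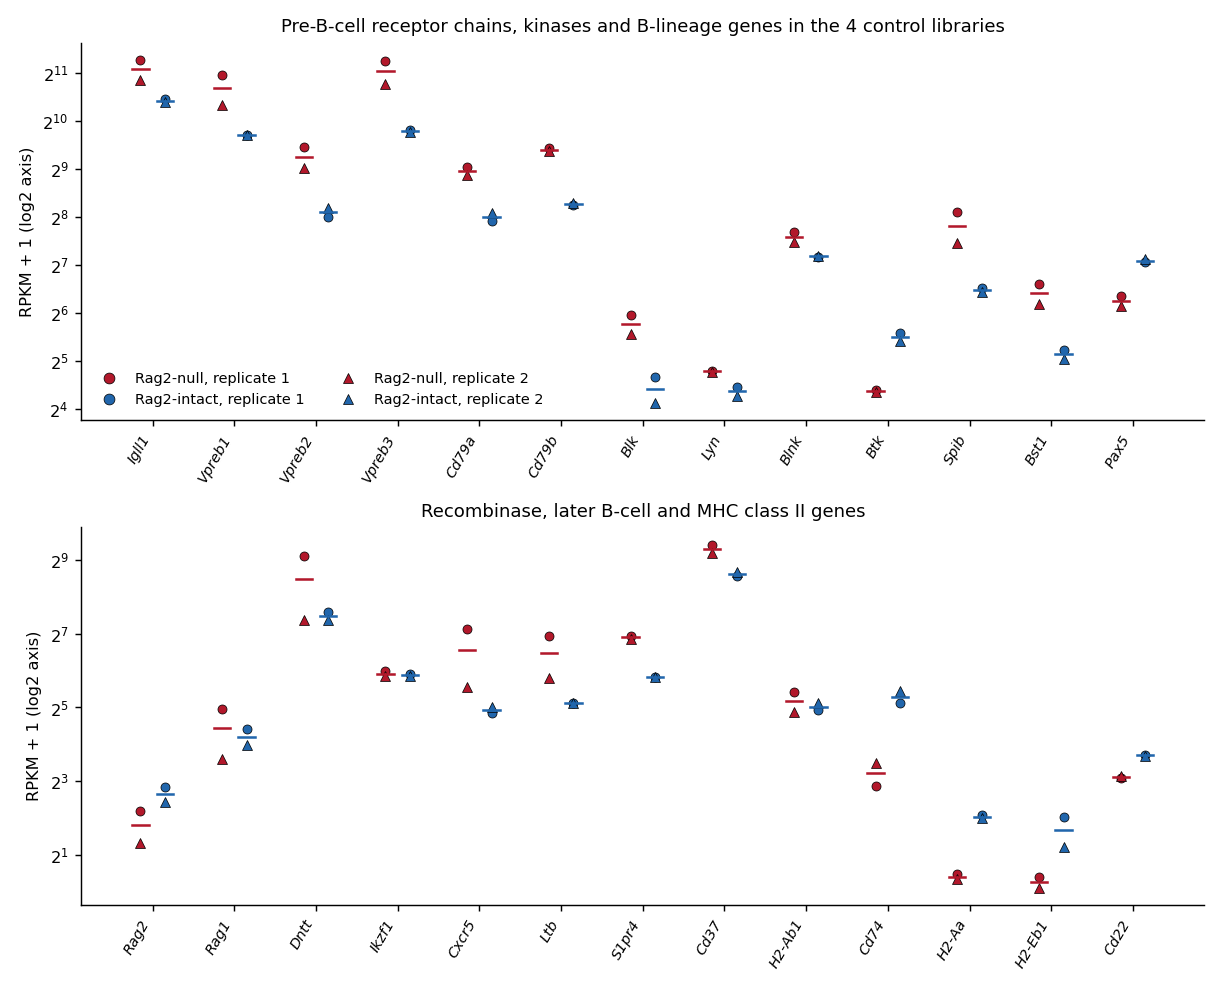
RPKM + 1 on a log2 axis in each of the 4 control libraries for pre-B-cell receptor, kinase and B-lineage genes (upper) and for recombinase, later B-cell and MHC class II genes (lower). Circles and triangles are replicates 1 and 2, bars are group means of RPKM. The 6 receptor chain genes, Blk, Spib and Bst1 sit higher in Rag2-null libraries, and Btk, Pax5, Cd74 and H2-Aa sit lower.

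The interleukin-7 receptor group had 3 genes higher and 3 lower of 22 (median 0.14; 3 and 1 with length removed), against 13.2% and 23.8% of all rows. Crlf2, the receptor for the related cytokine TSLP, was at 54.8 and 52.8 RPKM against 28.6 and 27.9 RPKM, with no overlap (0.91, SE 0.15, adjusted p = 0.00071). The kinase Jak3 (0.56) and the feedback inhibitor Socs1 (0.76) also rose. Myc, a growth regulator, had 145 and 209 RPKM against 260 and 273 RPKM and fell (−0.61, SE 0.17, adjusted p = 0.014). Bcl2 (−0.74), an inhibitor of apoptosis, and the kinase Jak1 (−0.30) fell as deposited but not with length removed, where Jak1 turned to 0.09. Without intact replicate 1 the counts were 2 higher and 1 lower, without intact replicate 2 they were 2 and 0, and without Rag2-null replicate 1 they were 4 and 0. Socs1, Myc, Bcl2 and Jak1 each lost the call without at least 1 library, with adjusted p up to 0.27, 0.13, 0.079 and 0.22. The receptor chain Il7r itself was low in all 4 libraries, at 11.8 and 9.58 against 8.49 and 7.93 RPKM, and was not called (0.34, adjusted p = 0.47). Of 18 progenitor and early pro-B genes, Sox4 rose and the adhesion receptor Cd44 (−1.28) and Mef2c fell (median 0.07; 4 higher and 1 lower with length removed). Without Rag2-null replicate 1, 0 rose and 4 fell, without Rag2-null replicate 2, 4 rose and 2 fell, and without either intact replicate 0 rose and 2 fell.

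Of 17 tested genes that join the ends made by the recombinase, 1 was higher and 3 were lower (median −0.25), against 13.2% and 23.8% of all rows. With length removed the counts were 2 and 1 (median 0.14). The ligase Lig1 (−0.29) and the break sensor Parp1 (−0.51) fell, though not with length removed. Lig1 (adjusted p up to 0.26) was lost without any 1 library and Parp1 (up to 0.14) without any but Rag2-null replicate 1. The counts of the group were 0 and 1 without intact replicate 1, 1 and 1 without intact replicate 2, and 2 and 1 without Rag2-null replicate 2. Hmgb2, a DNA-bending protein that assists the recombinase, had 48.6 and 63.5 RPKM in Rag2-null and 121 and 141 RPKM in intact libraries. The groups were clearly separate (−1.22, SE 0.14, adjusted p = 5.4e-05; −1.10 with length removed). Dntt, the polymerase that adds untemplated bases to coding joins, was at 546 and 163 RPKM against 190 and 165 RPKM. Only Rag2-null replicate 1 stood out, and Dntt was not called (0.75, SE 0.51, adjusted p = 0.29). Its difference was −0.12 (adjusted p = 0.82) without that library and 1.62, called (adjusted p = 0.0052), without Rag2-null replicate 2. The end-joining genes Lig4 (0.13), Xrcc4 (−0.41), Dclre1c (−0.31) and Prkdc (−0.36) were not called either, although Prkdc turned to 0.49 with length removed.

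As deposited, genes that sense and signal DNA breaks were mostly lower in Rag2-null cells. Of 20 tested, 13 fell and 1 rose, with a median of −0.86 against −0.09 over all rows. With length removed 8 fell and 1 rose (median −0.36). Of all rows 23.8% were lower as deposited and 14% with length removed. Under quantile normalization 10 of the 20 fell and 1 rose, and with all 30 RNA libraries in the fit 8 fell and 1 rose. The gene models of the fallers ran from 2507 to 12028 nt. Rif1, a 53BP1 partner with an 8538 nt model, had 2.10 and 3.72 RPKM against 11.3 and 11.4 RPKM and was lower in both libraries by a wide margin (−1.69, SE 0.27, adjusted p = 0.00053; −1.06 with length removed). Mdc1 (−1.22), Rad50 (−1.20) and Brca1 (−1.19) fell and passed with length removed as well. The kinase Atm also fell (−0.91), but its 12028 nt model gave −0.10 (adjusted p = 0.70) with length removed. H2ax, the histone variant phosphorylated around breaks, was the riser at 997 and 694 RPKM against 458 and 397 RPKM, without overlap (0.96, SE 0.19, adjusted p = 0.0019).

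Targets of p53 differed more between the 2 Rag2-null libraries than between the genotypes. Of 32 listed, 27 were tested, and 3 rose (Btg2 0.93, Tap1 0.92, Rps27l 0.87) and 2 fell (Plk2 −0.73, Tnfrsf10b −0.55), with a median of 0.05 (4 and 0 with length removed). Phlda3, which limits survival signalling, had 5.87 and 55.0 RPKM in Rag2-null replicates 1 and 2 and 18.0 and 21.0 RPKM in the intact replicates. The 2 Rag2-null values thus lay on either side of the intact pair (−0.06, SE 0.77, adjusted p = 0.96). Ccng1 (15.6 and 56.7 RPKM against 30.7 and 35.1), the death gene Bbc3 (5.74 and 23.8 against 8.39 and 11.9) and Zmat3 (0.633 and 6.79 against 2.22 and 2.70) were placed in the same way. Without Rag2-null replicate 1, 9 targets rose and 0 fell, and without replicate 2, 3 rose and 9 fell, so no direction of this group held in both libraries. Of the 5 calls named, Btg2 was lost without Rag2-null replicate 1 (adjusted p = 0.069), Plk2 without that library or intact replicate 2 (up to 0.15), and Tnfrsf10b without any 1 library (up to 0.19). The cell-cycle inhibitor Cdkn1a, at 63.5 and 146 RPKM against 51.5 and 55.5 RPKM, was not called (0.84, adjusted p = 0.097). Trp53 itself was at 244 and 232 against 199 and 201 RPKM (0.25, adjusted p = 0.090).

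In the NF-κB group, which includes genes known to respond to recombinase breaks, 1 of 19 tested genes rose and 5 fell (median −0.07; 1 and 3 with length removed). The matching shares of all rows were 13.2% higher and 23.8% lower, and 14.6% and 14% with length removed. Cd69, an early activation antigen, had 4.39 and 6.37 RPKM against 19.8 and 23.0 RPKM, with all Rag2-null values below all intact ones (−1.82, SE 0.24, adjusted p = 0.00017; −1.91 with length removed). Nfkbiz (−1.48) and Bcl3 (−0.84), both nuclear IκB proteins, fell from low levels, and Swap70 (−0.44) and Nfkb1 (−0.28) fell by less and did not pass with length removed. The inhibitor Nfkbie rose (0.47; 0.14 without Rag2-null replicate 1). Without intact replicate 2, 0 of the 19 rose and 2 fell, and 0 rose without intact replicate 1 or Rag2-null replicate 1. Adjusted p-values without 1 library reached 0.055 for Bcl3, 0.065 for Swap70, 0.22 for Nfkb1 and 0.42 for Nfkbie. Nfkbia, the common feedback target, was not called (0.27, adjusted p = 0.21).

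Mitotic genes split by direction, with 6 of 24 higher and 11 lower (median −0.37), against 13.2% and 23.8% of all rows. With length removed 4 were higher and 5 lower (median −0.13), near the 14.6% and 14% of all rows. Mki67, the proliferation antigen that coats mitotic chromosomes, was at 14.1 and 10.8 RPKM in Rag2-null and 148 and 137 RPKM in intact libraries. Both Rag2-null values were far below both intact values (log2 −3.42, SE 0.39, adjusted p = 0.00020; −2.71 with length removed). The kinetochore genes Cenpe (−2.21) and Cenpf (−1.77) fell as well, and these 3 models run from 7859 to 11140 nt. In the opposite direction, Ube2c, the ubiquitin-conjugating enzyme of the anaphase-promoting complex, had 511 and 419 RPKM against 225 and 196 RPKM (1.14, SE 0.22, adjusted p = 0.0018). The centromeric histone Cenpa (0.76) and the anaphase activator Cdc20 (0.60) rose too, all 3 passing with length removed. Without intact replicate 1, 4 rose and 4 fell, without intact replicate 2, 2 rose and 9 fell, without Rag2-null replicate 1, 3 rose and 7 fell, and without Rag2-null replicate 2, 3 rose and 9 fell. Of the genes named, only Cdc20 was lost, without intact replicate 2 (adjusted p = 0.051). Fewer dividing cells and less of a transcript in each dividing cell cannot be told apart in bulk RNA, here or for any marker below. Among 25 replication genes, 5 rose, such as the sliding clamp Pcna (0.71) and thymidylate synthase Tyms (0.59), and 4 fell, such as Pola1 (−0.96) and Mcm10 (−0.77), with a median of 0.09. With length removed 3 rose and 3 fell. Under quantile normalization 1 rose and 5 fell. Without either intact replicate 4 or 2 rose and 2 fell, without Rag2-null replicate 1, 5 rose and 1 fell with Mcm10 lost (adjusted p = 0.054), and without Rag2-null replicate 2, 3 rose and 6 fell.

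Among genes of energy metabolism, higher calls outnumbered lower calls. Of 24 tested nuclear genes of oxidative phosphorylation, 17 rose and 1 fell, with a median of 0.65 against −0.09 for all rows. With the length trend removed 13 rose and 1 fell (median 0.38), and under quantile normalization 11 rose and 2 fell. In the Ikzf1-deleted comparison 9 rose and 2 fell (median 0.19), and 4 rose and 4 fell with length removed (median 0.07). In the control comparison with all 30 RNA libraries in the fit, 6 rose and 1 fell. Ndufa1, a small complex I subunit, had 328 and 286 RPKM against 97.6 and 103 RPKM and no overlap (1.60, SE 0.14, adjusted p = 1.3e-05; 0.92 with length removed). Cox7a2 of complex IV rose (1.47), and the large complex I subunit Ndufs1 fell (−0.73). In glycolysis 9 of 20 rose and 1 fell (median 0.49), against 13.2% and 23.8% of all rows, and 10 and 0 with length removed. Eno1, the enolase, was at 354 and 274 RPKM against 149 and 143 RPKM, higher in both Rag2-null libraries (1.08, SE 0.14, adjusted p = 0.00016; 1.04 with length removed). Gpi1 (0.76), Aldoc (0.98) and Aldoa (0.74) rose. Pyruvate kinase Pkm rose as deposited (0.66) but was −0.16 under quantile normalization, in which 5 members rose and 0 fell. The glucose carrier Slc2a3 was the faller (−0.49) and lost the call without any 1 library (adjusted p up to 0.13). In glycolysis, 6 rose without intact replicate 1, 5 without intact replicate 2 and 6 without Rag2-null replicate 1, and Aldoc was lost each time (adjusted p up to 0.26). Cholesterol synthesis had 1 riser (Mvk 0.54) and 3 fallers (among them Cyp51 −0.53 and Sqle −0.36) of 19, and 3 and 0 with length removed. None rose or fell without intact replicate 1, 1 rose and 1 fell without intact replicate 2, 1 rose and 0 fell without Rag2-null replicate 1, and 1 rose and 5 fell without Rag2-null replicate 2. Mvk (adjusted p 0.057), Sqle (0.23) and Cyp51 (0.17) were thus lost without intact replicate 1.

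Interferon-stimulated genes that passed were higher, with 8 of 16 tested (25 listed) up and Stat2 alone down (median 0.55), and 8 up and 0 down with length removed. Over all rows 13.2% were higher and 23.8% lower as deposited. Without intact replicate 1, intact replicate 2 or Rag2-null replicate 1 in turn, 5, 4 and 5 were up. Psmb9, an immunoproteasome subunit, had 315 and 278 RPKM against 125 and 139 RPKM, without overlap (1.16, SE 0.18, adjusted p = 0.00045; 0.70 with length removed). Psmb8 (0.92) and the peptide transporter Tap1 (0.92), which like Psmb9 serve MHC class I presentation, and the RNA sensor Oas1a (1.15) rose. Stat2 was at 5.86 and 3.67 against 6.89 and 7.26 RPKM (−0.51).

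Immediate early genes, which respond within minutes to growth or stress signals, were lower where they passed, apart from 1. Of 17 tested, 8 fell and 1 rose (Btg2), with a median of −0.84 (−0.23 without Rag2-null replicate 1), against 23.8% lower and 13.2% higher of all rows. With length removed 8 fell and 2 rose. Fos, a subunit of AP-1, had 0.735 and 1.97 RPKM in Rag2-null and 18.8 and 31.5 RPKM in intact libraries. The groups were far apart, although each replicate pair was spread (−3.48, SE 0.80, adjusted p = 0.0097), and the adjusted p was 0.069 without Rag2-null replicate 1 and 0.063 without intact replicate 2. Egr1 was at 2.98 and 7.80 against 23.4 and 32.6 RPKM (−2.28, SE 0.33, adjusted p = 0.00044). Fosb (−2.95), Klf4 (−1.32), Dusp1 (−1.09) and Jun (−0.98) fell too. Fosb was lost without the same libraries (adjusted p up to 0.069). Without Rag2-null replicate 1, 6 members fell and 0 rose, and without intact replicate 2, 5 fell and 1 rose. The heat-shock and stress group had 6 higher and 6 lower of 17 (median 0.13), and 4 higher and 5 lower with length removed. Hsph1 (−1.5), Hsp90aa1 (−0.93) and Hspa5 (−0.86) were among the fallers and Ddit4 (1.01) and Trib3 (0.67) among the risers. Without Rag2-null replicate 1 its counts were 6 higher and 3 lower, without Rag2-null replicate 2 they were 2 and 8, and without the intact replicates 2 and 4 or 3 and 4, with Trib3 lost each time (adjusted p up to 0.18).

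**Figure D3:**
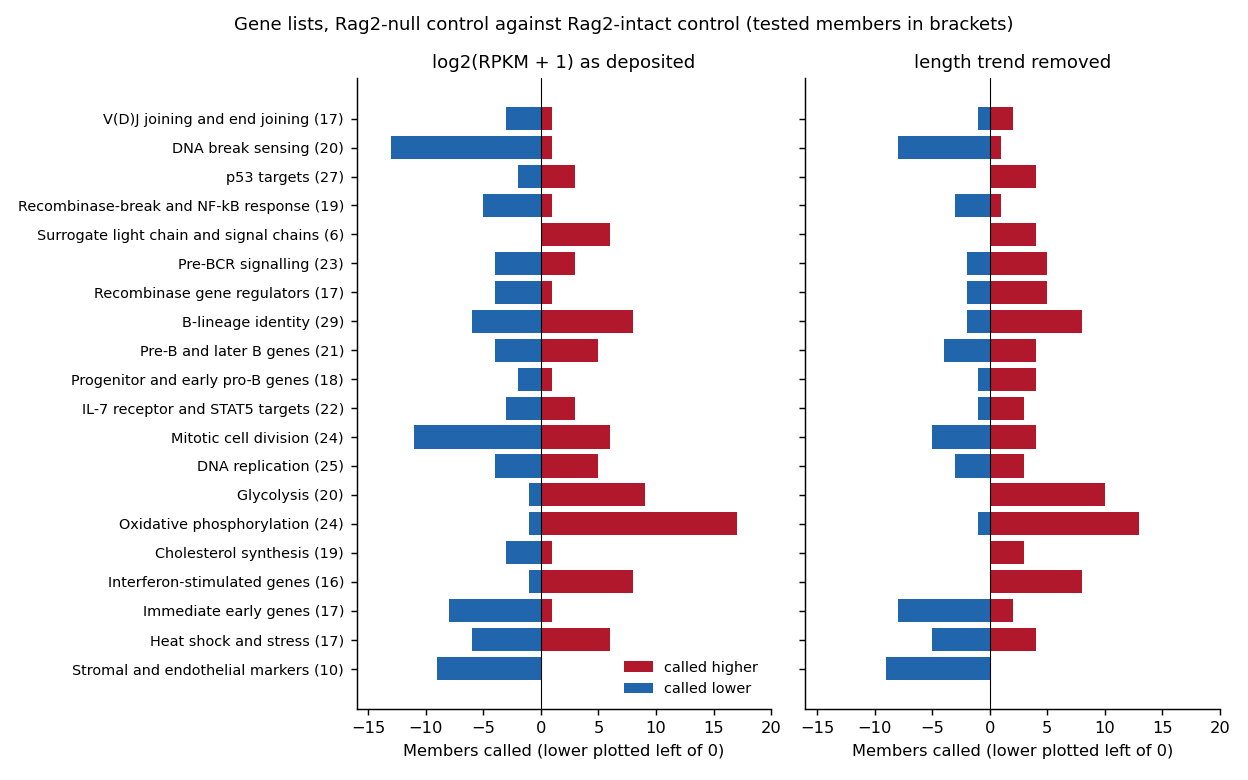
Members of each gene group called higher (right of 0) or lower (left of 0) in Rag2-null than in Rag2-intact control libraries, as deposited (left) and with the length trend removed (right). The number of tested members is in brackets. Break sensing (13), mitosis (11) and stromal and endothelial markers (9) hold the most lower calls as deposited, and oxidative phosphorylation the most higher calls.

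Transcripts of stromal cells, the supporting cells of bone marrow and of B-cell cultures, were lower in the Rag2-null control libraries. Of 16 listed markers, 10 were tested, and 9 of these fell and none rose (median −1.91; 9 and 0 with length removed). Cxcl12, the chemokine that retains B precursors, had 2.23 and 5.20 RPKM against 31.2 and 45.3 RPKM, with no overlap (−3.11, SE 0.32, adjusted p = 4e-05). The matrix genes Col1a1 (−2.55), Col1a2 (−2.52) and Fn1 (−2.05) fell alongside, Col1a1 not without intact replicate 2 or Rag2-null replicate 1 (adjusted p up to 0.062), and the endothelial gene Pecam1 was not called (−0.13). Summed over the 16 markers the Rag2-null libraries had 43.4 and 48.8 RPKM and the intact libraries 166 and 240 RPKM, and 1 marker was at 0 in each. The same sum was 539 and 434 RPKM in Rag2-null and 144 and 109 RPKM in Rag2-intact Ikzf1-deleted libraries, which is the opposite order. The part of stromal RNA in the lower immediate early, Cd74 or Cd69 values was not tested.

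Markers of other blood cells were low. None of 15 neutrophil markers was tested, and their sums were 1.06 and 0.235 RPKM against 0.992 and 1.32 RPKM, with 9 and 13 against 12 and 10 markers at 0. The 15 monocyte and macrophage markers summed to 31.5 and 12.4 against 22.7 and 20.5 RPKM, and Adgre1, C1qa, C1qb and C1qc were at 0 in all 4 libraries. Only 3 were tested, of which Cd68 (−1.27) and Vcam1 (−1.41) fell, and Vcam1 is also on the stromal list above. The 17 T and NK cell markers summed to 56.3 and 47.0 against 40.8 and 43.8 RPKM, mostly from Lck (0.33, adjusted p = 0.046 and up to 0.17 without 1 library), while Cd3e, Cd3g and Cd8a were at 0 in each library. Of the 13 erythroid and megakaryocyte markers 2 were tested and 0 were called, and their sums, 93.4 and 197 against 75.0 and 94.4 RPKM, came mostly from Car2. The 13 dendritic markers summed to 85.0 and 106 against 61.6 and 74.4 RPKM, with 1 of 3 tested, Irf7 (0.86), called but lost with length removed and without either intact replicate or Rag2-null replicate 1 (adjusted p up to 0.27 without 1 library). Of 10 plasma cell genes 7 were tested, and Mzb1, a chaperone also found in B precursors, alone rose at 1294 and 1094 RPKM against 511 and 465 RPKM (1.28, SE 0.29, adjusted p = 0.0067), and 2 rose with length removed. The 12 core B-cell markers, which check the label, were all tested and summed to 6821 and 4975 against 3541 and 3507 RPKM, with 4 higher and 1 lower (4 and 0 with length removed).

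**Figure D4:**
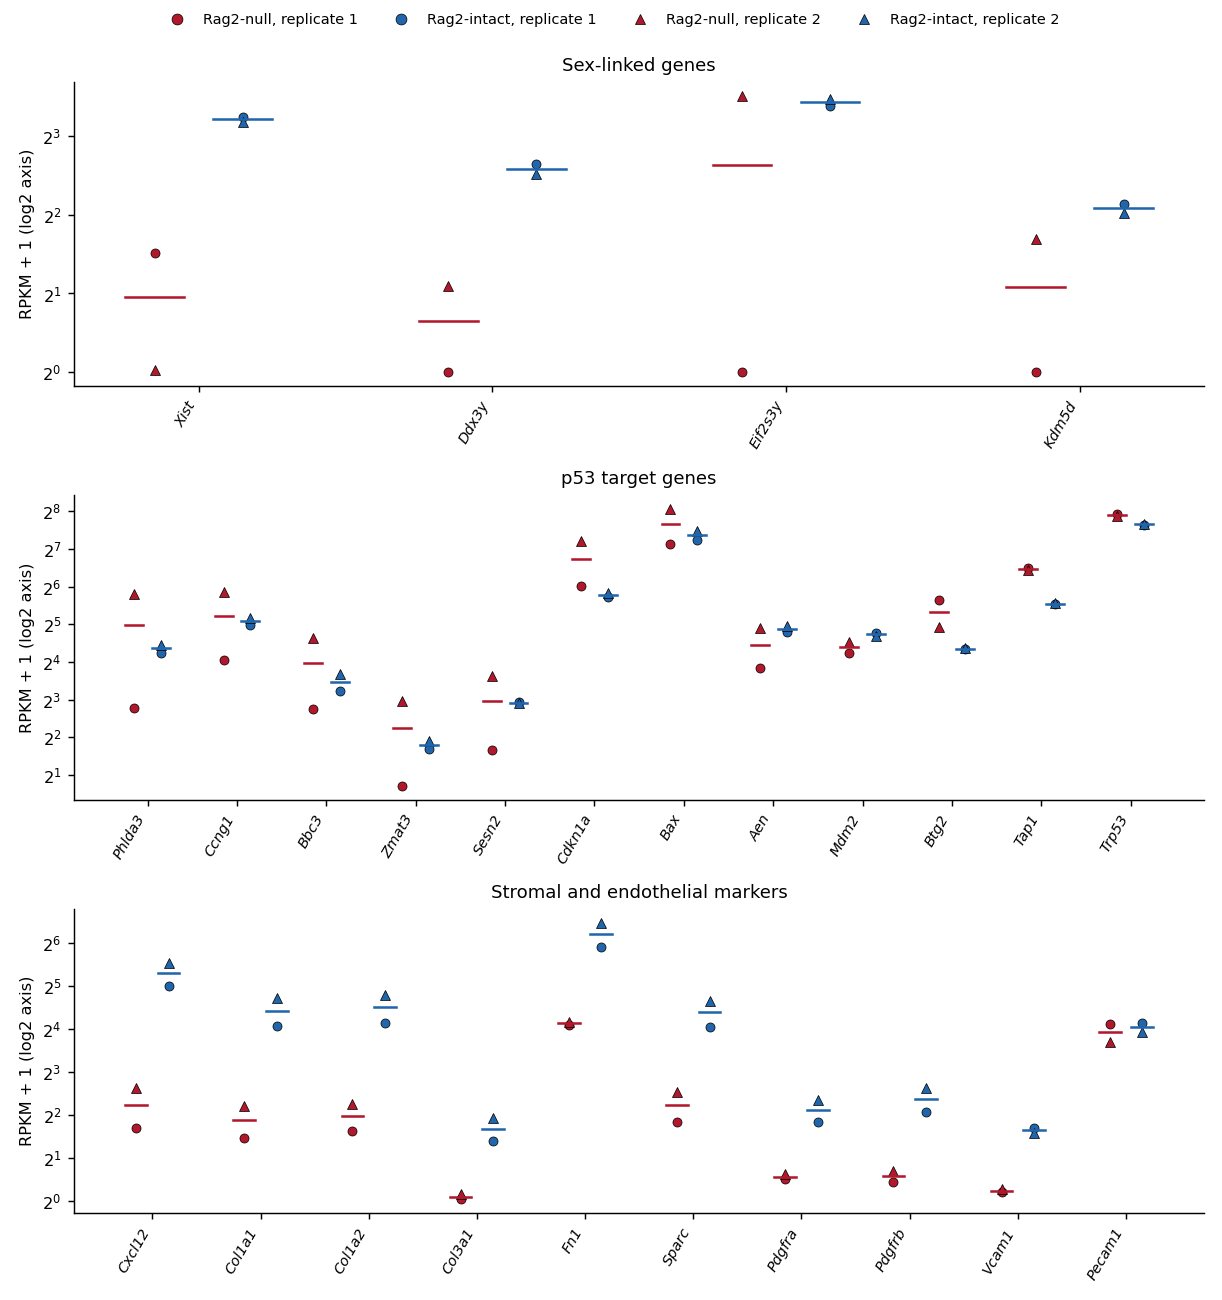
RPKM + 1 on a log2 axis in each control library for sex-linked genes (upper), p53 targets (middle) and stromal and endothelial markers (lower). Circles and triangles are replicates 1 and 2, bars are group means of RPKM. Y-linked genes are at 0 in Rag2-null replicate 1, p53 targets such as Phlda3 lie apart in the 2 Rag2-null libraries, and 9 stromal markers are lower in both Rag2-null libraries.

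The 15 largest increases that met the naming rule included ribosomal protein and respiratory chain genes, together with the RNA-processing gene Lsm5 (2.95), the interferon-inducible Ifi27l2a (2.94) and Psenen (2.60), a γ-secretase subunit. Rpl32l, a ribosomal protein gene copy, was at 1943 and 1482 RPKM in Rag2-null and 18.0 and 38.5 RPKM in intact libraries (log2 5.96, SE 0.42, adjusted p = 2.8e-05). Rps7 was at 548 and 454 against 21.5 and 30.4 RPKM (4.23), and the ATP synthase subunit Atp5l at 37.6 and 31.1 against 1.01 and 1.33 RPKM (4.02). These differences are wider than any in the B-lineage groups. Genes of this kind have many near-identical copies in the genome, their rows are uncertain because reads can be shared between copies, and the sources used here do not give how reads that match several places were counted. Gapdh, another such gene, had only 1.42 to 3.91 RPKM in the 4 libraries. Of 88 rows for cytosolic ribosomal proteins 83 were tested, and 50 rose and 2 fell (median 0.83; 35 and 4 with length removed). Together these rows took 13.1% and 12% of summed RPKM in the Rag2-null libraries against 7.71% and 7.75% in the intact libraries. H3f3a, which encodes the replacement histone H3.3 and also has copies, was at 338 and 255 against 37.9 and 37.6 RPKM (2.93, SE 0.16, adjusted p = 7e-07).

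The 15 largest decreases included Fos, Fosb, Mki67, Cxcl12, Col1a1 and Col1a2 described above. Ccn1, a matrix signalling protein, was at 0.214 and 0.147 RPKM in Rag2-null and 10.7 and 15 RPKM in intact libraries, the widest fall of all named genes (−3.54, SE 0.34, adjusted p = 2.7e-05). Il1rn (−2.96), which encodes the interleukin-1 receptor antagonist, the neurofilament gene Nefh (−2.89), the collagens Col6a2 (−2.67) and Col6a1 (−2.53) and the fatty-acid carrier Fabp4 (−2.58) fell. Prrc2c, with a 10479 nt model, had 10.8 and 11.9 RPKM against 72.4 and 75.4 RPKM (−2.60; −1.86 with length removed). Tmem119, known from osteoblasts and microglia, was at 7.30 and 20.4 against 74.8 and 72.0 RPKM (−2.48, SE 0.47, adjusted p = 0.0031).

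The Ikzf1-deleted libraries gave a separate comparison of Rag2 genotypes, with no library in common but the same difference of library runs. There 1805 rows (17.4%) were higher and 2316 (22.3%) lower in Rag2-null cells, 39.7% in all. Of the rows higher in the controls, 662 were also higher here, which is 48.4% of the control calls and 36.7% of the Ikzf1-deleted calls, and 47 were lower. Of the rows lower in the controls, 1401 were also lower (56.6% and 60.5%) and 182 higher. Under all 5 ways of treating the values (as deposited, quantile normalization, median-ratio scaling, voom on implied reads, and length trend removed), 294 rows were higher and 611 lower in both comparisons. Besides the multi-copy genes above, those higher included Wdr89 (1.92 in controls, 1.39 in Ikzf1-deleted) and Adgre5 (1.28 and 1.4), the adhesion receptor CD97. Those lower included Mki67 (−3.42 and −2.85), Hmgn5 (−2.39 and −2.77), which encodes a nucleosome-binding protein, the small nucleolar RNA host genes Snhg1 (−1.54 and −1.47) and Snhg3 (−2.04 and −1.57), and Lime1 (−1.83 and −1.80). The 6 surrogate and signal chain genes all rose in both, with Cd79b at 672 and 580 against 300 and 246 RPKM in the Ikzf1-deleted cells (1.20), and Hmgb2 fell alike (−1.22 and −1.29).

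The Rag2-null minus Rag2-intact difference was not the same in controls and Ikzf1-deleted cells in 1322 rows (12.7%) by the interaction test. Rag2 was at −0.88 in the controls, a call that several settings above removed, whereas in the Ikzf1-deleted libraries it had 1.85 and 1.5 RPKM in Rag2-null and 0.0238 and 0.0261 RPKM in Rag2-intact cells (1.38, SE 0.29; difference −2.26, adjusted p = 0.0032). Rag1 was at 20.8 and 9.20 against 0.872 and 0.200 RPKM there (3.32; difference −3.24, adjusted p = 0.020). Dntt was at 140 and 81.0 against 6.49 and 4.14 RPKM (4.12; difference −3.36, adjusted p = 0.018). All 3 recombination genes were thus higher in the Rag2-null cells of the Ikzf1-deleted pair, where the Rag2-intact cells had little of them, and Foxo1, a known activator of Rag1 and Rag2, was placed the same way (2.15 against −0.05 in controls).

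Cd74 fell in both comparisons but by more in the Ikzf1-deleted cells, at 13.5 and 10.2 against 429 and 472 RPKM (−5.15; difference 3.06, adjusted p = 0.00069). H2-Aa did the same (−5.76), and Cd22 dropped there from 98.0 and 96.2 RPKM to 13.4 and 9.84 RPKM (−2.97). Spib changed direction, rising by 1.31 in controls and falling by 1.23 in Ikzf1-deleted cells (difference 2.54, adjusted p = 0.00014). Blnk rose further in the Ikzf1-deleted cells (1.96), and the T-lineage kinase Lck fell there (−2.37) after a small rise in controls. The stromal genes Fn1 (−2.05 and 2.43) and Cxcl12 (−3.11 and 1.25) and the early genes Jun (−0.98 and 1.27) and Ier3 (−0.96 and 1.85) moved in opposite directions in the 2 comparisons, each with the difference called.

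**Figure D5:**
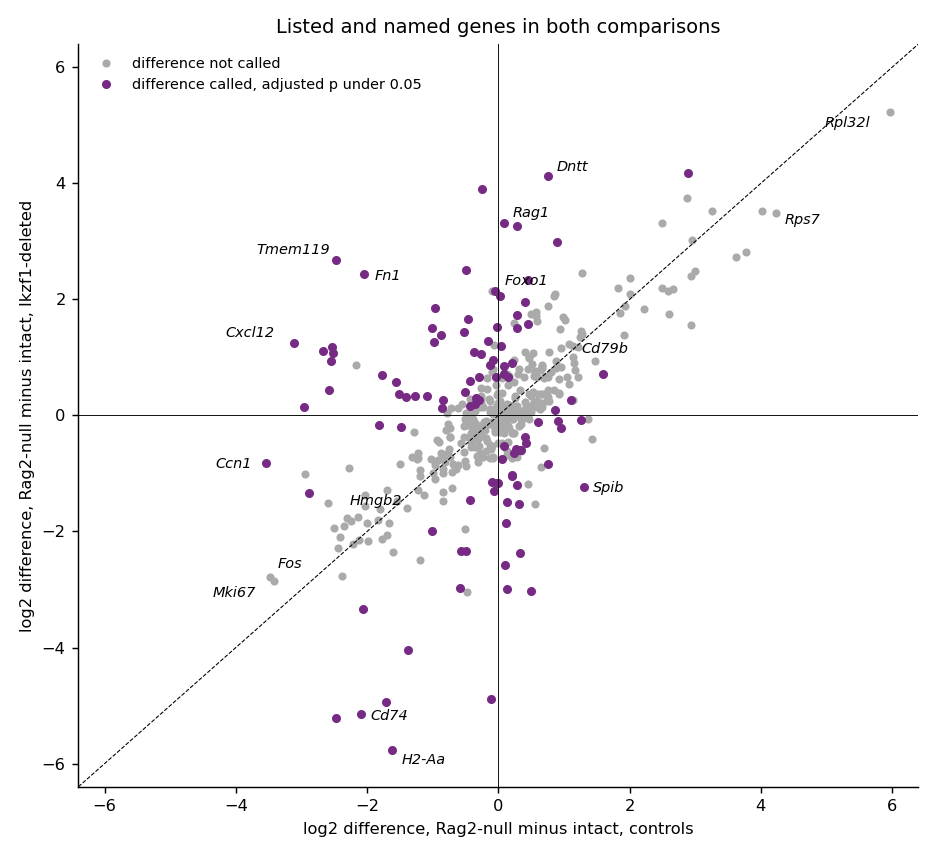
Log2 difference, Rag2-null minus Rag2-intact, in controls (horizontal) and in Ikzf1-deleted libraries (vertical) for 443 listed and named genes. Some were included because they were called in the same direction in both comparisons, so their nearness to the line is partly set by that choice. The dashed line marks equal values, and purple points are the 103 genes whose 2 differences themselves differ by the interaction test. Over all tested rows 12.7% differed by that test, and the plotted genes are a chosen set. Rpl32l and Mki67 lie near the line, Rag1, Dntt, Fn1 and Cxcl12 above it, and Spib, Cd74 and H2-Aa below it.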

How the data were processed

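Polyadenylated, strand-marked RNA libraries were sequenced single-end. The authors deposited 1 table of RPKM values per gene and library, and the submitters' processing notes name TopHat 1.4.1, HTSeq 0.5.3, DESeq 1.8.3 and the mm9 build. The values of the 8 pro-B libraries were whole numbers of reads per row within 0.01 reads. From them the totals used for scaling were recovered, at 10.23 to 33.85 M reads, and these are the depths given here. Gene rows held 99.93% to 99.95% of each total, so reads outside gene models may not be counted in it. Groups were taken from the labelled genotypes, and p-values and folds are on the log2(RPKM + 1) scale, which understates changes of low genes.

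Rows with at least 1 RPKM in at least 2 of the 4 control libraries were fitted with limma 3.58.1 (R 4.3.3; intensity trend, robust moderation, two-sided, Benjamini-Hochberg over all tested rows) in 14 libraries (7 groups of 2, 7 residual degrees of freedom), and the control, Ikzf1-deleted and interaction contrasts were read from that fit. No batch term was possible. Rows were matched by accession (20661), symbol (191) or older symbol (65) to RefSeq, 108 remained unmatched, and of the 121 rows that share a symbol the one with the highest mean was used. Voom on the recovered reads (8 libraries) and removal of each library's length trend (lowess on log2 gene-model length, span 0.3) were chosen after seeing the data. The fit and the length step were tested on simulated data.

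Rag2, Rag1 and Ikzf1 were named first. Next came, among called genes whose groups did not overlap and whose higher group averaged 3 RPKM or more (predicted, miRNA and snoRNA genes aside), up to 15 in each direction by size of the log2 difference, then up to 4 called genes in each direction from each of 29 gene lists. All members of the Rag locus, surrogate light chain and sex-linked lists could be named. Further listed genes were named after their values were seen. The groups compared and the gene lists were chosen with earlier results of these data known. Promoter letters came from RefSeq on GRCm38.p6. Python 3.11.15, pandas 2.3.3 and matplotlib 3.10.9 were used. Hmgcs1, Hba-a1, Hba-a2, Hbb-bt and Trac matched no row. Some listed genes are not reported here by name.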

Additional observations from a re-analysis of the deposited data

Results flagged for a closer look

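The Rag2-null minus Rag2-intact difference was compared between the control and the Ikzf1-deleted libraries with limma's interaction test, adjusted over all tested rows. It differed in 46 of the 157 genes named, of which 14 had the same sign in both. Over all tested rows it differed in 1322 of 10389 (12.7%). Many of the 157 were named for the size of their control difference or after values were seen, so their share cannot be compared with that of all rows. Values below are the control difference minus the Ikzf1-deleted difference on the log2 scale.

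Among recombination, B-lineage and signalling genes the control difference was the lower one for Dntt (−3.36), Rag1 (−3.24), Bank1 (−2.51), Rag2 (−2.26), Foxo1 (−2.20), Blnk (−1.55), Ebf1 (−1.04), Parp1 (−0.90) and Jak1 (−0.55). It was the higher one for H2-Aa (4.14), H2-Ab1 (3.11), Cd74 (3.06), Lck (2.71), H2-Eb1 (2.68), Spib (2.54), Cd22 (2.39), Socs1 (1.59), Bst1 (1.34), H2ax (1.18), Swap70 (1.02), Pou2f2 (0.99), Crlf2 (0.99), Lyn (0.88) and Nfkbia (0.86). Outside these groups, it was also higher for the complex I subunit gene Ndufa1 (0.89).

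Among stromal and matrix genes the control difference was lower for Tmem119 (−5.16), Fn1 (−4.48), Cxcl12 (−4.37), Col6a2 (−3.78), Col6a1 (−3.71), Col1a2 (−3.60), Col1a1 (−3.48), Ccn1 (−2.72) and Vcam1 (−1.71). The same held for Tmem119 (−5.16), Il1rn (−3.10), Fabp4 (−3.02), Cd68 (−1.60) and Nefh (−1.55). Summed stromal markers were 43.4 and 48.8 RPKM in Rag2-null and 166 and 240 RPKM in intact controls, and 539 and 434 against 144 and 109 RPKM in the Ikzf1-deleted libraries, and their part in the other differences was not tested.

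Early-response and stress genes with a lower control difference were Ier3 (−2.80), Jun (−2.25), Cd69 (−1.66), Dusp1 (−1.42), Nfkbiz (−1.28), Bcl3 (−1.10), Hspa5 (−0.98) and the sterol enzyme gene Sqle (−0.56).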

How the results depend on the processing

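With 2 libraries a group, and batch, depth and Rag2 genotype inseparable, the calls describe these 4 libraries. No paired analysis was possible because the labels carry no replicate numbers shared between groups.

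In the controls, 1367 rows were higher and 2477 lower. With all 30 RNA libraries in the fit, 718 were higher and 1288 lower, and with the length trend removed 1454 were lower. Leaving out 1 library at a time gave 812 to 1409 higher and 1558 to 2304 lower rows. Where a group was left with 1 library, that library was assumed to vary like the other groups. In the Ikzf1-deleted comparison the corresponding ranges were 1002 to 1472 higher and 1187 to 1848 lower (1805 and 2316 with every library), the lowest without Rag2-null Ikzf1-deleted replicate 1, and with all 30 libraries 1332 were higher and 1332 lower. With the length trend removed, 4 rather than 9 of the 20 and 26 rather than 41 of the 100 genes nearest to Rag2 were called. A pseudocount of 0.1, no filter (14909 rows), a minimum of 3 RPKM, quantile normalization, median-ratio scaling, voom and the 4 libraries alone kept both control counts within 1.5 times. The share of control calls that were higher was 35.6%, but 46.4% under quantile normalization, 50.6% under median-ratio scaling and 51.1% with length removed; in the Ikzf1-deleted comparison it was 43.8%, and 54% with length removed.

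Single named genes changed sign as follows. Of genes called in 1 of the fits compared, Igll1 (−0.14) and Pkm (−0.16) turned under quantile normalization and Jak1 (0.09) and Prkdc (0.49) with length removed. Leaving out 1 control library gave −1.57 to 1.45 for Phlda3 and −1.03 to 0.77 for Ccng1, the higher value without Rag2-null replicate 1, and −1.08 to 1.18 for Zmat3, −0.70 to 1.17 for Bbc3 and −0.12 to 1.62 for Dntt, the lower value without Rag2-null replicate 2 for Zmat3 and Bbc3 and without replicate 1 for Dntt.

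Other changes of sign were of values not called on either side. Under quantile normalization these were Traf6 (0.03), Dclre1c (0.05), Trp53 (−0.01), Syk (−0.08), Ikzf1 (−0.03), Tcf3 (−0.18) and Pecam1 (0.02). With length removed they were Traf6 (0.27), Dclre1c (0.16), Ccng1 (0.09), Foxo1 (0.36), Ebf1 (0.14), H2-Ab1 (−0.12) and Pecam1 (0.08). Under median-ratio scaling they were Phlda3 (0.06), Foxo1 (0.08) and Ebf1 (0.04), and Zmat3 was −0.18 with a pseudocount of 0.1 and −0.30 with voom. Leaving out 1 library gave −0.60 to 0.76 for Rag1, −0.27 to 0.01 for Traf6, −0.11 to 0.37 for Lig4, −0.12 to 0.02 for Foxo1, −0.04 to 0.11 for Ikzf1, −0.39 to 0.22 for Ebf1, −0.14 to 0.39 for H2-Ab1, −0.34 to 0.09 for Pecam1 and −3.42 to 0.08 for Eif2s3y, of which the −3.42 passed the threshold. Ikzf1 (0.41), Syk (0.43) and Tcf3 (0.36) passed the threshold with length removed. The causes were not tested. Of the 157 genes named, 115 kept direction and side of the threshold with length removed, 125 under quantile normalization, 141 under median-ratio scaling, 133 in the 4 libraries alone and 116 with all 30 libraries.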
